A study of Mus musculus with 5 samples.

Results

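The DEAD and DEAH box helicases are a large family of RNA-dependent ATPases, and 49 of its genes were measured here in mouse heart. A gene was a member if the single symbol annotated to its probe set began with Ddx or Dhx and a digit; a pair of further family members was not analysed here. This gave 33 Ddx and 16 Dhx genes among the 22180 genes with a symbol of their own, each represented by its brightest probe set. Heart RNA was hybridised to 5 whole-transcript arrays. The 3 wild type arrays (replicates 3, 4 and 5) came from male C57BL/6 mice aged 12 weeks, and the 2 Akita arrays (replicates 1 and 3) from males of the same age and background. Akita mice carry a mutation in Ins2, an insulin gene, on a single copy (Ins2+/-), and the labels describe them as a model of type 1 diabetes; every cell of the animal carries the mutation. The labels do not say which part of the heart was taken or whether each array stands for its own animal. The p-values therefore reflect the scatter among these 5 arrays, part of which may be technical. The comparison asked how the transcripts of the diabetic heart differ from those of the healthy heart.

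These enzymes use ATP to open short RNA duplexes and to strip proteins from RNA, and are named after the letters of a conserved amino acid motif. Members act at many steps of RNA life, and some of them at several. They act in transcription and microRNA processing, in many remodelling steps of the spliceosome and in assembly of ribosomes in the nucleolus. Others act in export of mRNA through nuclear pores, in translation and decay, and in the detection of viral RNA. Heart muscle uses nearly all of these steps, while a few members belong to the germ line.

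Heart markers were bright on every array, and Tnnt2, a cardiomyocyte troponin, lay between 13.13 and 13.23. The summed signal of 8 cardiomyocyte markers was 15.63 to 15.68 (log2) in wild type and 15.56 to 15.59 in Akita, slightly lower. Of 4 tested skeletal muscle markers 2 lay lower and 2 higher, with a median of 0.01; their sum is carried by Ckm, which cardiomyocytes also express (11.53 to 11.72 in wild type, 11.48 and 11.28 in Akita replicates 1 and 3). Higher in Akita were the sums of 5 atrial markers (12.09 to 12.19 in wild type, 12.34 and 13.97 in Akita replicates 1 and 3), 5 white adipocyte markers (6.95 to 7.04, 7.29 and 7.63), 6 fibroblast markers (12.05 to 12.12, 12.16 and 12.48) and 5 endothelial markers (12.04 to 12.18, 12.22 and 12.36). The fibroblast sum rests mostly on Dcn, which overlapped (11.53 to 11.65 in wild type, 11.64 and 11.85 in Akita replicates 1 and 3). Of that list Lum and Pdgfra lay above the wild type range on both Akita arrays, while Col1a1 and Col1a2 overlapped. Tcf21 lay on either side of it, at 6.10 and 7.11 against 6.54 to 6.80. Of the endothelial markers Kdr and Emcn lay above the wild type range on both Akita arrays, while Pecam1, Cdh5 and Tie1 did not. The atrial sum rests mostly on Nppa (11.79 to 11.98 in wild type, 12.21 and 13.39 in Akita replicates 1 and 3). Bmp10 also lay above the wild type range on both Akita arrays, at 5.71 and 10.83 against 4.63 to 5.18. The Akita arrays split on Myl7 and Sln. In replicate 1 Myl7 was at 6.55 (7.83 to 8.10 in wild type) and Sln at 6.71 (7.74 to 8.13), below the wild type range. In replicate 3 they were at 10.36 and 10.85, above it. Myl4 was at 7.57 and 8.37 against 7.48 to 7.97. The sums of 5 macrophage markers, of the 4 measured lymphocyte markers and of 6 male germ cell markers overlapped between the groups. Within the macrophage list, Cd68 lay lower at 6.47 and 6.82 in Akita against 7.40 to 7.56 in wild type (-0.85, limma adjusted p = 0.0773), as did Adgre1 at 6.06 and 6.26 against 6.33 to 6.54, whereas Csf1r, Cd163 and Mrc1 overlapped. Of the red blood cell list only Slc4a1 had a probe set of its own, at 5.06 to 5.46 in wild type and 5.67 and 5.38 in Akita. No marker passed an adjusted p of 0.05. Adipoq and Lep, also on the white adipocyte list, lay under the filter and overlapped between the groups. The higher adipocyte sum therefore rests on Plin1, Cidec and Retn, which were dim, with wild type means of 4.90, 4.98 and 5.13. The part of any of these markers' cell types in the helicase differences was not tested. In bulk tissue fewer cells of a type and less RNA per cell cannot be told apart.

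In the Akita hearts a single helicase gene passed the test across all genes. Ddx5, which encodes a co-regulator of transcription and splicing that also assists the nuclear processing of microRNA precursors, fell by 0.78 on the log2 scale to 0.581 times the wild type level. Ddx39b, an adaptor of mRNA export and splicing, lay 0.57 lower without passing. Most other members lay within 0.3 of the wild type mean, and the genes for the spliceosome, ribosome assembly, translation and RNA sensing held 0 calls. Of the 46 members bright enough to test, 1 passed an adjusted p of 0.05, against 0.328% of all 15528 genes tested.

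Ddx5 stood at log2 signals of 11.24, 11.32 and 11.32 in wild type replicates 3, 4 and 5, and at 10.59 and 10.43 in Akita replicates 1 and 3. Both Akita arrays lay under all 3 wild type arrays, by far more than either group's own spread. The means were 11.29 ± 0.05 (SD, n = 3) and 10.51 ± 0.11 (SD, n = 2), a log2 difference of -0.78 (SE 0.11, 95% interval -1.04 to -0.52, limma adjusted p = 0.0492). By p this gene was number 51 of the 51 genes called, 33 of them higher and 18 lower in Akita, so its call lies next to the threshold. It was lost when any array was left out, with an adjusted p of 0.222, 0.263 and 0.165 without wild type replicates 3, 4 and 5 and of 0.0821 and 0.110 without Akita replicates 1 and 3. The difference was then -0.86 without Akita replicate 1 and -0.70 without Akita replicate 3. The call was also lost with no filter on dim genes (0.0507), with quantile normalization again (0.0848), with array weights (0.0786) and with arrays centred on the median of the genes tested (0.161). Over all 13 alternatives the adjusted p ran from 0.00120 to 0.263, 4 of them at or under 0.05, while the difference stayed between -0.86 and -0.69 with an unadjusted p under 0.05 in each. With 3 and 2 arrays, the smallest p that an exact one-sided permutation test allows is 0.1.

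A separate probe set, annotated to Ddx5 together with the microRNA locus Mir3064 and therefore outside the members, read 10.29, 10.33 and 10.41 in wild type and 10.09 and 10.27 in Akita. Its Akita arrays lay below the wild type arrays as well, but by 0.16 on average, so the signals annotated to this locus differ in how far they dropped. Mir3064 lies within the Ddx5 gene, on the same strand in the RefSeq annotation of GRCm38.p6. Its mature arms are shown because they share that transcription unit, with the seed (bases 2 to 8) in capitals.
mmu-miR-3064-5p: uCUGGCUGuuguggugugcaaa
mmu-miR-3064-3p: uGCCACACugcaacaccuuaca
The arms have different seeds. The arrays gave no value for either arm on its own.

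**Figure D1:**
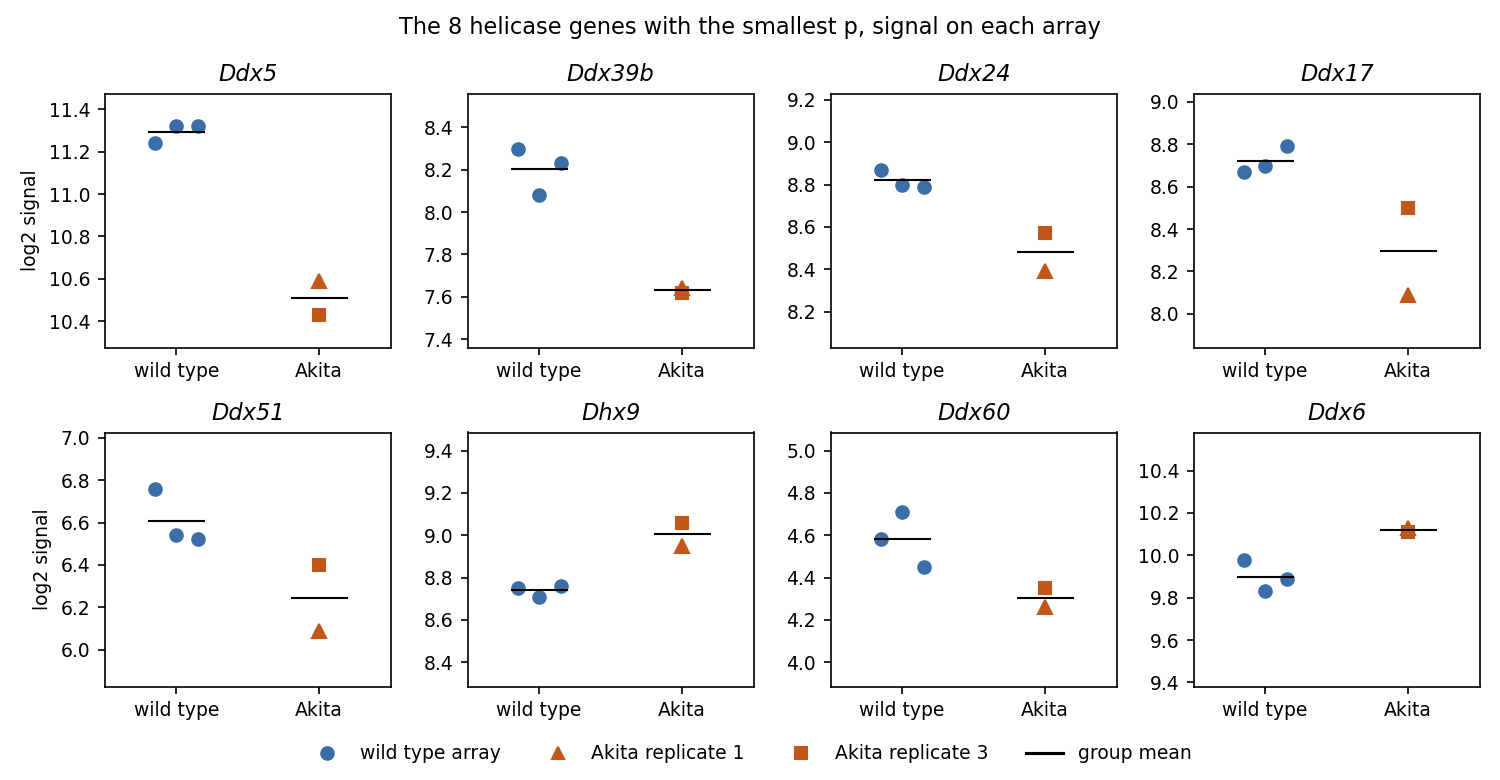
Log2 signal of the 8 members with the smallest p on each array, wild type as circles, Akita replicate 1 as a triangle and Akita replicate 3 as a square, with lines at the group means; every panel spans 1.2 log2 units but starts at its own level. Ddx5 and Ddx39b show the widest gaps between the groups, while in Ddx17 and Ddx51 the square lies nearer to the wild type circles than the triangle.

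Among the other members that act in transcription and small RNA processing, Ddx17 is the closest relative of Ddx5 and works with it in the complex that processes primary microRNAs. Ddx17 stood at 8.67, 8.70 and 8.79 in wild type and at 8.09 and 8.50 in Akita replicates 1 and 3. Both Akita arrays were low, the first by 0.63 and the second by 0.22. The log2 difference was -0.43 (SE 0.14, adjusted p = 0.289), which did not pass, and it was -0.22 without Akita replicate 1. Dhx9, a nuclear helicase that links transcription factors to RNA polymerase and unwinds structured RNA, went the other way. It read 8.75, 8.71 and 8.76 in wild type and 8.95 and 9.06 in Akita, with no overlap (log2 difference 0.27, SE 0.11, adjusted p = 0.343, not passed). Ddx20, a partner of the survival of motor neuron protein in assembly of small nuclear ribonucleoproteins, differed by -0.08 (95% interval -0.40 to 0.25). Thus 3 of the 4 genes of this role lay lower and 1 higher, where 56.5% of all genes tested lay lower.

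Ddx39b has roles both in early spliceosome assembly and in mRNA export. It stood at 8.30, 8.08 and 8.23 in wild type and at 7.64 and 7.62 in Akita. The Akita arrays nearly coincided and lay well under the lowest wild type array. The log2 difference was -0.57 (SE 0.12, 95% interval -0.84 to -0.30, adjusted p = 0.135). Its adjusted p ran from 0.0377 to 0.416 over the 13 alternatives and passed in 1, with an intensity trend and a robust prior, while the unadjusted p was under 0.05 in all 13. Ddx39b has 2 further, dimmer probe sets that differed by -0.36 and -0.13, and the mean of its 3 probe sets differed by -0.35. Ddx39a, its near-identical relative in mRNA export, read 5.95, 6.11 and 6.04 in wild type and 6.08 and 6.01 in Akita, a difference of 0.01 (95% interval -0.25 to 0.27). That interval does not reach the estimate for Ddx39b, but whether these relatives differ was not tested. A brighter probe set, annotated to Ddx39a together with Adgre5 and so outside the members, differed by -0.25. Because the relatives are alike in sequence, probes of one may also bind the other. Ddx19b, which releases mRNA from export factors at the outer face of the nuclear pore, read 6.44, 6.26 and 6.23 in wild type and 5.84 and 6.25 in Akita (log2 difference -0.27, SE 0.15, adjusted p = 0.491). Only Akita replicate 1 was low, and without it the difference was -0.06. Ddx19a was not analysed here.

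The bases just before the annotated start are shown for Ddx17 and Ddx39b, which lay lowest after Ddx5, and for Dhx9, the 1 member higher at an unadjusted p under 0.05, so that their promoters can be read side by side. They come from RefSeq (GRCm38.p6, most upstream start listed) and were trimmed to bases outside any annotated gene span; the array files name no build. Ddx17 lies at chr15:79546765-79546991 on the minus strand, Ddx39b at chr17:35241496-35241745 on the plus strand and Dhx9 at chr1:153487689-153487910 on the minus strand. The window of Ddx5 falls inside the span of the neighbouring gene Cep95 and is not printed. Capitals mark matches on either strand to the CCAAT box (spelled by its name), the GC box GGGCGG, the E box CACGTG, the cAMP response element TGACGTCA, the TATA box (searched as TATAAA) or the core of the interferon response element, GAAANNGAAA.
Ddx17: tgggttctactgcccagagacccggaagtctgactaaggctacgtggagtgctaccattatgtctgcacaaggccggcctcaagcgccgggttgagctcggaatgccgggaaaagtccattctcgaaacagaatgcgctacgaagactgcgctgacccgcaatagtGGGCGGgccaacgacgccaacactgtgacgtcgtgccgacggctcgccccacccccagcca
Ddx39b: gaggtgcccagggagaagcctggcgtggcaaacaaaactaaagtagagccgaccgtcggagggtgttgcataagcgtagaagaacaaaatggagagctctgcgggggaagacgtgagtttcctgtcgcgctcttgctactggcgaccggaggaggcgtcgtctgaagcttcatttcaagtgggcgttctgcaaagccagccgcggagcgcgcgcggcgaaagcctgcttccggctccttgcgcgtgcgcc
Dhx9: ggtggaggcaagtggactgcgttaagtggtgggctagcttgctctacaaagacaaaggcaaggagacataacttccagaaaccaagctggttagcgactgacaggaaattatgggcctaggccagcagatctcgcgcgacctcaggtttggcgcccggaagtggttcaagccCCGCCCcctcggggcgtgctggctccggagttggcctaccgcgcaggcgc
Ddx17 and Dhx9 each hold 1 match, both to the GC box, and Ddx39b holds 0. GC content was 60.8% in Ddx17, 60.8% in Ddx39b and 60.4% in Dhx9, so the printed stretches were nearly alike in base composition. Of the 43 members with an entry, 62.8% held a GC box in the 250 bases before the start and 46.5% a CCAAT box, against 33.0% and 34.5% of 27025 genes. The median GC content of these windows was 60.8% in members and 52.0% in all genes. The TATA box was found in 1 member, Ddx58 (2.33% against 13.0% of all genes). The E box was found in Ddx4, Dhx33, Dhx35 and Dhx40 (9.30% against 6.04%) and the cAMP response element in Ddx51 and Dhx36 (4.65% against 1.60%). A match describes the letters of the window and not a site of binding.

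**Figure D2:**
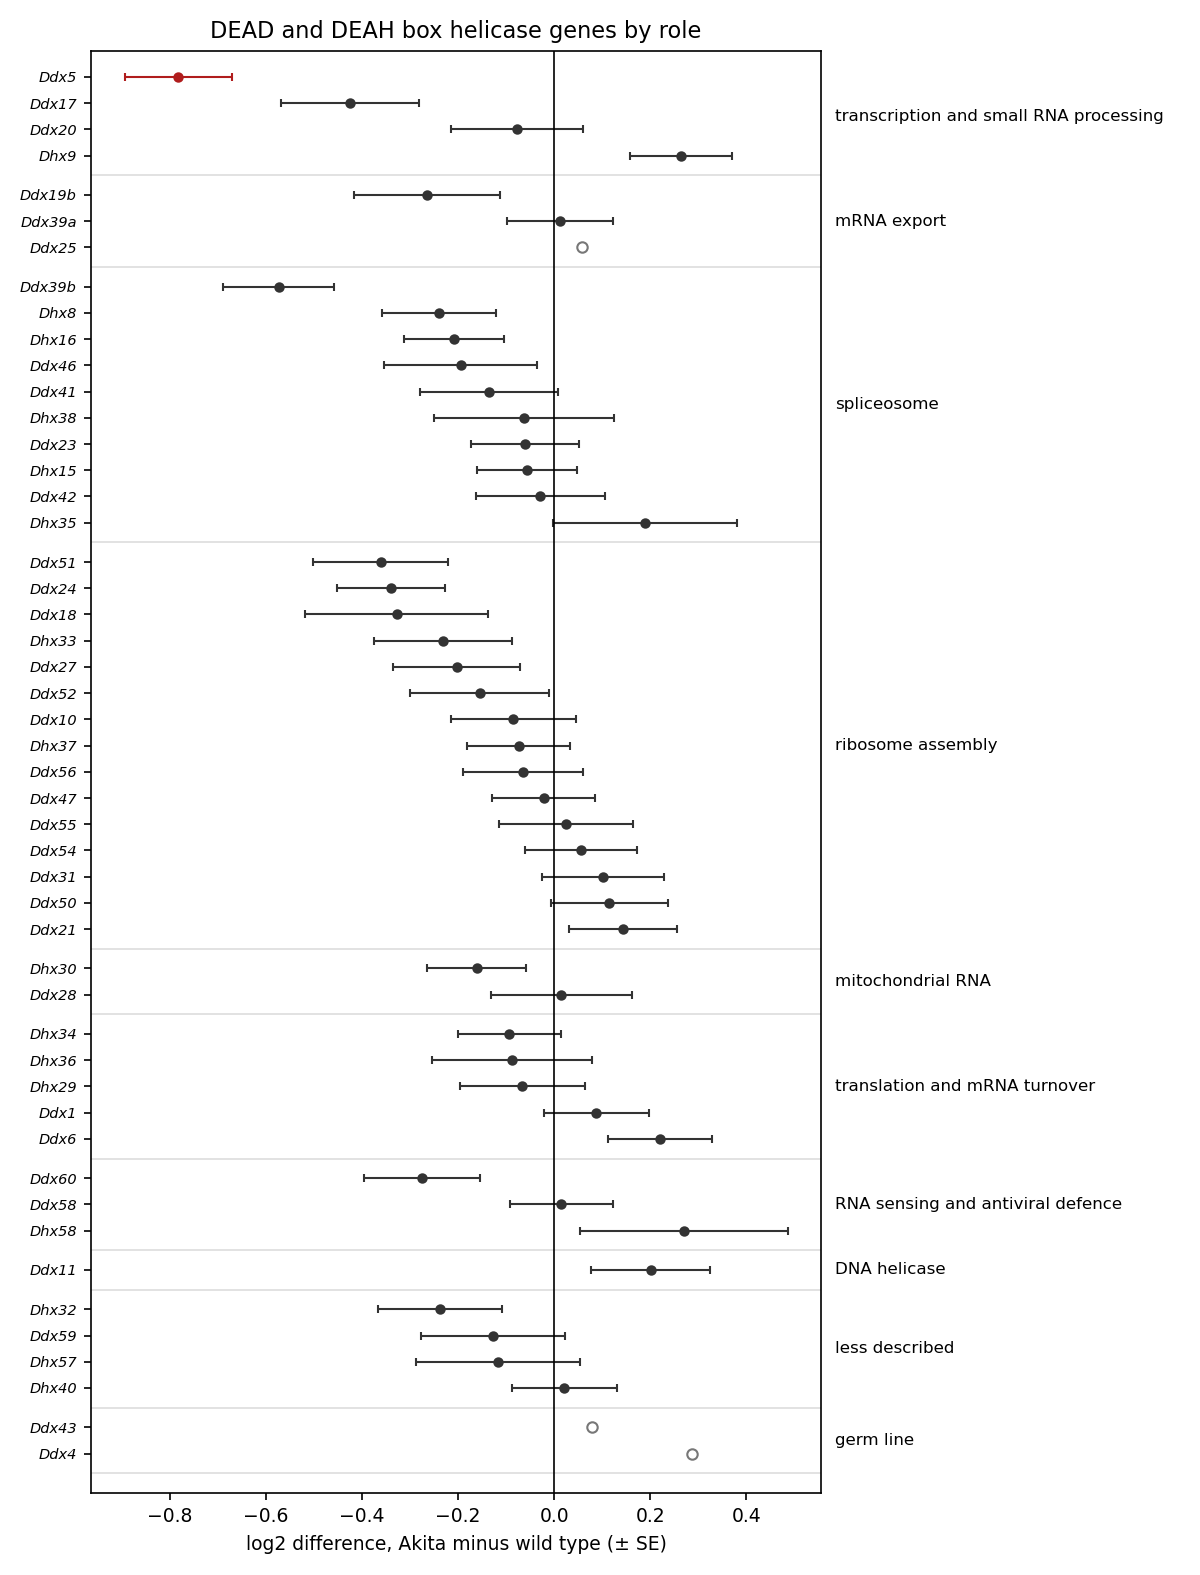
Log2 difference, Akita minus wild type, of all 49 members grouped by role, with points at the estimate and bars at ± SE; open points without bars are the 3 members below the filter on dim genes. Ddx5 (red) is the member that passed an adjusted p of 0.05. The spliceosome row has 9 of 10 genes left of 0 for the mean of both Akita arrays, where 56.5% of all genes tested lay lower.

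The spliceosome is taken through its cycle by a series of helicases, most of them of this family. Of 10 such genes, Ddx39b included, 9 lay lower and 1 higher in Akita, with a median of -0.10. None was called by limma, and Ddx39b was the 1 gene of the role at an unadjusted p under 0.05. Over all genes tested, 56.5% lay lower and 9.49% did so at that p. The count of 9 rests partly on Akita replicate 1. In Akita replicate 3 alone, Ddx46 (0.06), Ddx23 (0.01), Dhx38 (0.11), Ddx42 (0.06) and Dhx35 (0.47) lay above the wild type mean, and the others below it. The direction over the whole family also depended on the scaling, as given below. After Ddx39b the smallest p belonged to Dhx8, which frees the spliced mRNA, at 7.20, 7.38 and 7.26 in wild type and 6.95 and 7.13 in Akita, with no overlap (log2 difference -0.24, SE 0.12, adjusted p = 0.436). It was -0.15 without Akita replicate 1, -0.13 with quantile normalization again and -0.15 with arrays centred on the median of the genes tested. Dhx16, which activates the spliceosome for its first reaction, also lay lower without overlap, from 6.82 ± 0.04 (SD, n = 3) to 6.62 ± 0.01 (SD, n = 2; adjusted p = 0.438). Ddx46, which helps U2 bind the branch site, was lower only in Akita replicate 1, at 7.85 against 8.36 in replicate 3 and 8.27 to 8.33 in wild type. Dhx15, which takes spent spliceosomes apart, differed by -0.06 (95% interval -0.30 to 0.19). Ddx23 (-0.06), Ddx42 (-0.03), Dhx38 (-0.06) and Ddx41 (-0.14), which act at earlier steps or in the catalytic phase, overlapped between the groups. Dhx35 was the gene of this role that lay higher, at 6.99 and 7.55 in the Akita arrays against 6.88 to 7.27 in wild type.

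Ribosome assembly has the most members, 15 on the array and all tested. Of these, 10 lay lower and 5 higher with a median of -0.07, 2 of them lower at an unadjusted p under 0.05, and 0 were called. For all genes tested, 56.5% lay lower and 9.49% did so at that p. Ddx24, a nucleolar helicase of the large subunit pathway, read 8.87, 8.80 and 8.79 in wild type and 8.39 and 8.57 in Akita. The groups did not overlap (log2 difference -0.34, SE 0.11, adjusted p = 0.282). Ddx51, which acts on the precursor of the large subunit RNA, read 6.76, 6.54 and 6.52 in wild type and 6.09 and 6.40 in Akita (log2 difference -0.36, SE 0.14, adjusted p = 0.331). Its second Akita array lay close under the wild type range, and without Akita replicate 1 the difference was -0.21. Ddx18 lay lower by 0.33 with overlap (7.61, 7.65 and 7.19 in wild type, 6.93 and 7.38 in Akita), and its second, dimmer probe set lay 0.13 higher.

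Ddx21 and Ddx50, close relatives that lie next to each other in the genome, both lay higher instead. Ddx21, which couples ribosomal RNA transcription to processing, read 7.80, 7.76 and 7.62 in wild type and 7.87 on both Akita arrays, just above the wild type range (log2 difference 0.14, SE 0.11, adjusted p = 0.625). Its dimmer probe set differed by -0.13, and the mean of both probe sets by 0.01. Ddx50 read 7.80, 7.87 and 7.64 in wild type and 7.81 and 7.96 in Akita, overlapping (log2 difference 0.12, 95% interval -0.17 to 0.40). Of the remaining genes of this role, Dhx33 (-0.23), Ddx27 (-0.20) and Ddx52 (-0.16) lay lower, and Ddx10, Dhx37, Ddx56, Ddx47, Ddx55, Ddx54 and Ddx31 lay between -0.09 and 0.10. Ddx49 had no probe set of its own, and the probe set it shares with Homer3 differed by -0.20. In mitochondria, Dhx30, a component of the granules where mitochondrial RNA is handled, read 6.60, 6.63 and 6.62 in wild type and 6.44 and 6.47 in Akita. The groups were tight and apart, but the log2 difference of -0.16 (SE 0.10, adjusted p = 0.539) did not pass. It was -0.06 with quantile normalization again and -0.07 with arrays centred on the median of the genes tested. Ddx28, which helps build the mitochondrial large subunit, differed by 0.02 (95% interval -0.33 to 0.36).

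For translation and mRNA turnover, Ddx6, the repressor and decapping activator of processing bodies, stood highest relative to wild type. It read 9.98, 9.83 and 9.89 in wild type and 10.13 and 10.11 in Akita, without overlap (log2 difference 0.22, SE 0.11, 95% interval -0.03 to 0.47, adjusted p = 0.432). Dhx34, a factor of nonsense-mediated decay, differed by -0.09 (95% interval -0.34 to 0.16), and Dhx29, which helps ribosomes scan structured leaders, by -0.07. Dhx36, which resolves G-quadruplexes, read 7.77 in Akita replicate 1 and 8.32 in replicate 3, on either side of the wild type range of 8.10 to 8.17. Ddx1, a subunit of the tRNA ligase complex, differed by 0.09. Of these 5 genes 3 lay lower and 2 higher, where 56.5% of all genes tested lay lower. None of the 5 had an unadjusted p under 0.05.

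None of the 3 RNA sensors passed the test, and their directions differed. Ddx58, the cytosolic sensor RIG-I, read 6.47, 6.34 and 6.39 in wild type and 6.39 and 6.44 in Akita, a log2 difference of 0.02 with a 95% interval of -0.24 to 0.27 (adjusted p = 0.967). Ddx60, an interferon-inducible antiviral helicase, was dim at 4.58, 4.71 and 4.45 in wild type and lay lower at 4.26 and 4.35 in Akita (log2 difference -0.28, SE 0.12, adjusted p = 0.381). Its groups did not overlap. It was the 1 member of 43 with the interferon response core in the 250 bases before its start. That is 2.33%, against 3.05% of all genes. Any link between the match and its level was not tested. Dhx58, the relative LGP2 that tunes RIG-I signalling, was dim too and scattered, at 4.48, 5.11 and 4.45 in wild type and 4.80 and 5.10 in Akita (log2 difference 0.27, SE 0.22, adjusted p = 0.634), and its difference ran from 0.12 without Akita replicate 3 to 0.48 without wild type replicate 4. Among 13 tested genes of the RNA sensor pathway, 10 lay lower, 2 at an unadjusted p under 0.05, and limma called 0. They include Ifih1, which is also counted among the other RNA helicases below. Over all genes tested, 56.5% lay lower, and the share lower at that p was 9.49%. The smallest p belonged to Irf9 (-0.35, adjusted p = 0.310), a subunit of the interferon-activated transcription factor, Ifit3 (-0.29, adjusted p = 0.346), an interferon-induced antiviral gene, and Mavs (-0.33, adjusted p = 0.383), the mitochondrial adaptor of RIG-I.

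The germ line members were at the floor of the array. Ddx4, the germ cell helicase Vasa, read 3.12, 3.01 and 3.09 in wild type and 3.30 and 3.42 in Akita. Ddx25, a testicular helicase, read 3.49, 3.51 and 3.49 in wild type and 3.43 and 3.68 in Akita, and Ddx43 read 2.61, 2.84 and 2.68 against 2.87 and 2.71. All lay under the filter at a mean log2 signal of 4.06 and were not tested. Ddx11, a DNA helicase of sister chromatid cohesion, was dim at 5.03, 5.25 and 5.12 in wild type and 5.43 and 5.24 in Akita, with overlap (log2 difference 0.20, SE 0.12, adjusted p = 0.525). Of 4 members with less described roles, Dhx32 lay lower without overlap, at 7.84, 7.56 and 7.56 in wild type and 7.38 and 7.45 in Akita (log2 difference -0.24, SE 0.13, adjusted p = 0.470). It was -0.14 with quantile normalization again or arrays centred on the median of the genes tested and -0.15 without wild type replicate 3. Ddx59 (-0.13) and Dhx57 (-0.12) were lower only in Akita replicate 1, and Dhx40 differed by 0.02.

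Counted over the family at an unadjusted p under 0.05, 5 of 46 lay lower (10.9%), where 9.49% of all genes tested did, and 1 lay higher (2.17%), where 4.13% did. Both Akita arrays lay below all wild type arrays in 12 members (26.1%, against 19.9% of all genes) and above them in 3, Dhx9, Ddx6 and Ddx21 (6.52%, against 9.89%). A difference beyond 0.3 in either direction was seen in 6 members (13.0%), against 17.2% of all genes. The median difference was -0.075 over the members and -0.0317 over all genes, with 31 members lower and 15 higher. That direction depended on the scaling: 19 lay lower and 27 higher with arrays centred on the median of the genes tested, 22 and 24 with quantile normalization again, and 36 and 10 with arrays centred on the median of all named genes. With these scalings the 5 lower and 1 higher at an unadjusted p became 4 and 2, 6 and 2, and 5 and 0. All genes moved with the scaling too: the share lower was 37.7%, 50.4% and 62.8%, the share lower at that p 5.11%, 8.01% and 10.4%, and the share higher at that p 7.65%, 5.28% and 3.27%.

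**Figure D3:**
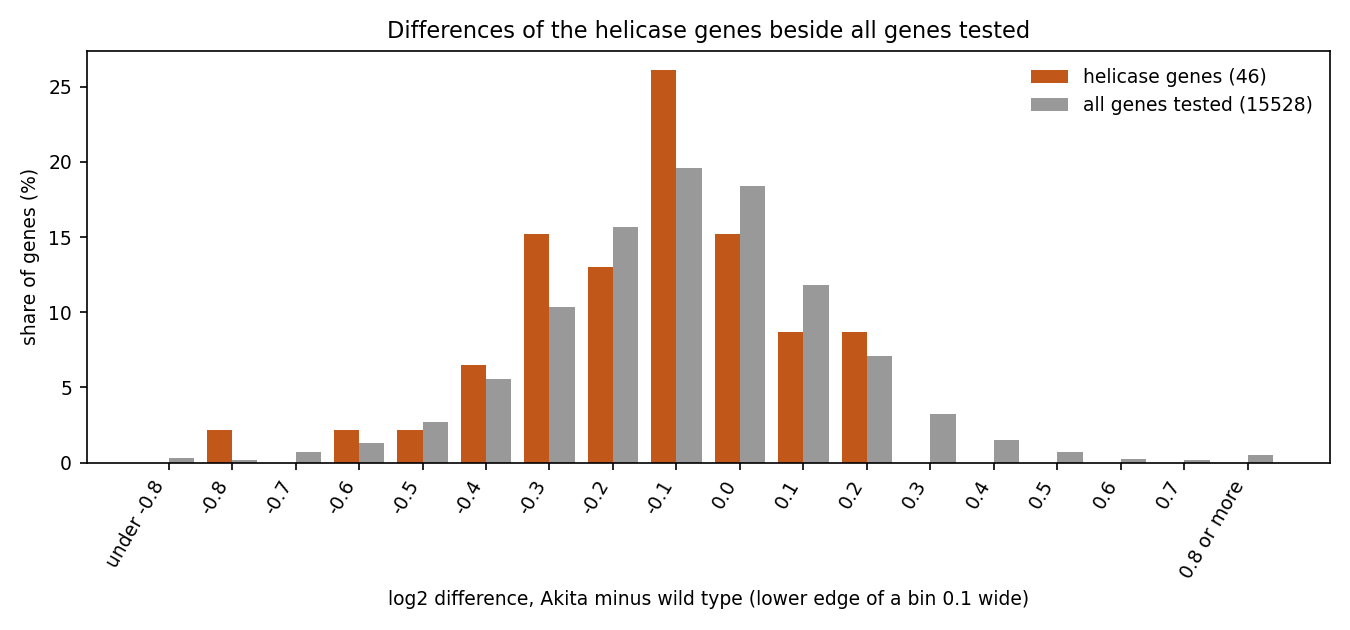
Share of genes (%) in each bin of log2 difference, Akita minus wild type, for the 46 tested members (orange) and all 15528 genes tested (grey); bins are 0.1 wide and labelled by their lower edge. Both distributions centre just below 0, and the members hold no value of 0.3 or more, their highest being 0.27.

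Ddx and Dhx genes gave like medians, -0.0708 over 30 Ddx genes (19 lower) and -0.0808 over 16 Dhx genes (12 lower). Of all genes tested, 56.5% lay lower. The Akita arrays differed more from each other than these subfamilies did. In Akita replicate 1 the median difference from the wild type mean was -0.18 over members and -0.07 over all genes, and 29 of 46 members (63.0%) lay below every wild type array, against 43.4% of all genes. In Akita replicate 3 these medians were 0.0067 and -0.0133, and 12 members (26.1%) lay below every wild type array, against 29.5% of all genes. Ddx17, Ddx18, Ddx46 and Dhx36 lay further below the wild type mean in Akita replicate 1 than in replicate 3, or only there, whereas Ddx5, Ddx39b and Dhx9 were displaced at least as far in Akita replicate 3. Array medians over all probe sets were 4.53 to 4.62 in wild type, 4.71 in Akita replicate 1 and 4.60 in replicate 3, while the median over the 49 members was 6.64 to 6.79 in wild type, 6.51 and 6.70. The part of this gap between the arrays in the members' values was not tested.

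**Figure D4:**
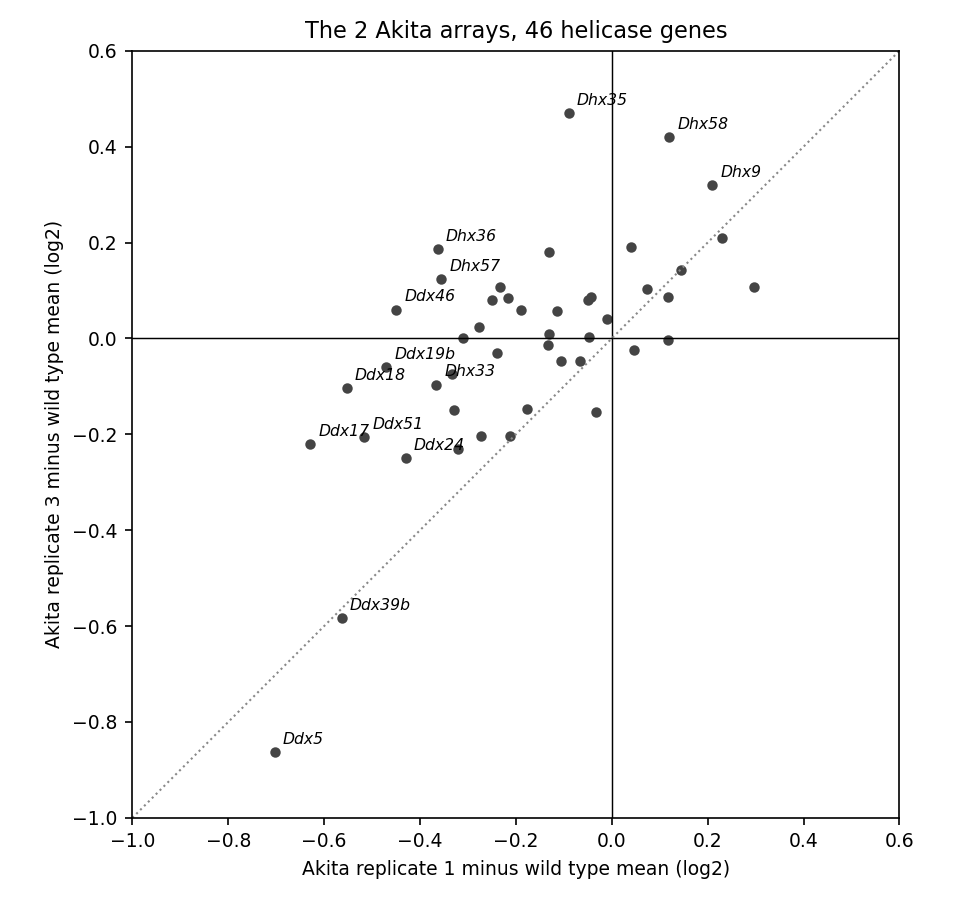
Log2 signal minus the wild type mean in Akita replicate 1 (horizontal) and Akita replicate 3 (vertical) for the 46 tested members; the dotted line marks equal values. Most points lie above the line and left of 0, and Ddx5 and Ddx39b stand alone at the lower left with both arrays under -0.5.

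Beyond the family, a list of other RNA helicases (translation factors of the Eif4a group, Upf1, Snrnp200 and the like) gave 12 lower and 7 higher of 19 tested, with 2 lower at an unadjusted p under 0.05, 0 called by limma and a median of -0.05. The smallest p belonged to the mitochondrial helicase gene Supv3l1 (-0.35, adjusted p = 0.316), Skiv2l, the helicase of the cytosolic exosome (-0.26, adjusted p = 0.348), and Helz2 (-0.29, adjusted p = 0.411). Among partners of the helicases 21 of 25 lay lower, 5 of them at an unadjusted p under 0.05, with 0 called by limma and a median of -0.13, where 56.5% of all genes lay lower and 9.49% did so at that p. Whether these partners differ from other genes was not tested. These counts hold for the values as reported. With other scalings the share of all genes lower ran from 37.7% to 62.8%. Alyref, the export adaptor that Ddx39b loads on mRNA, read 4.38, 4.89 and 4.91 in wild type and 3.70 and 3.53 in Akita. Both Akita arrays lay under the filter value of 4.06, which it passed through the wild type arrays, so the size of its difference is not given. Alyref is part of both partner counts, and a gene that passes in this way can only be counted as lower. Gpatch2 (-0.68, adjusted p = 0.178) and the splicing regulator Rbm5 (-0.42, adjusted p = 0.209) had the next smallest p.

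**Figure D5:**
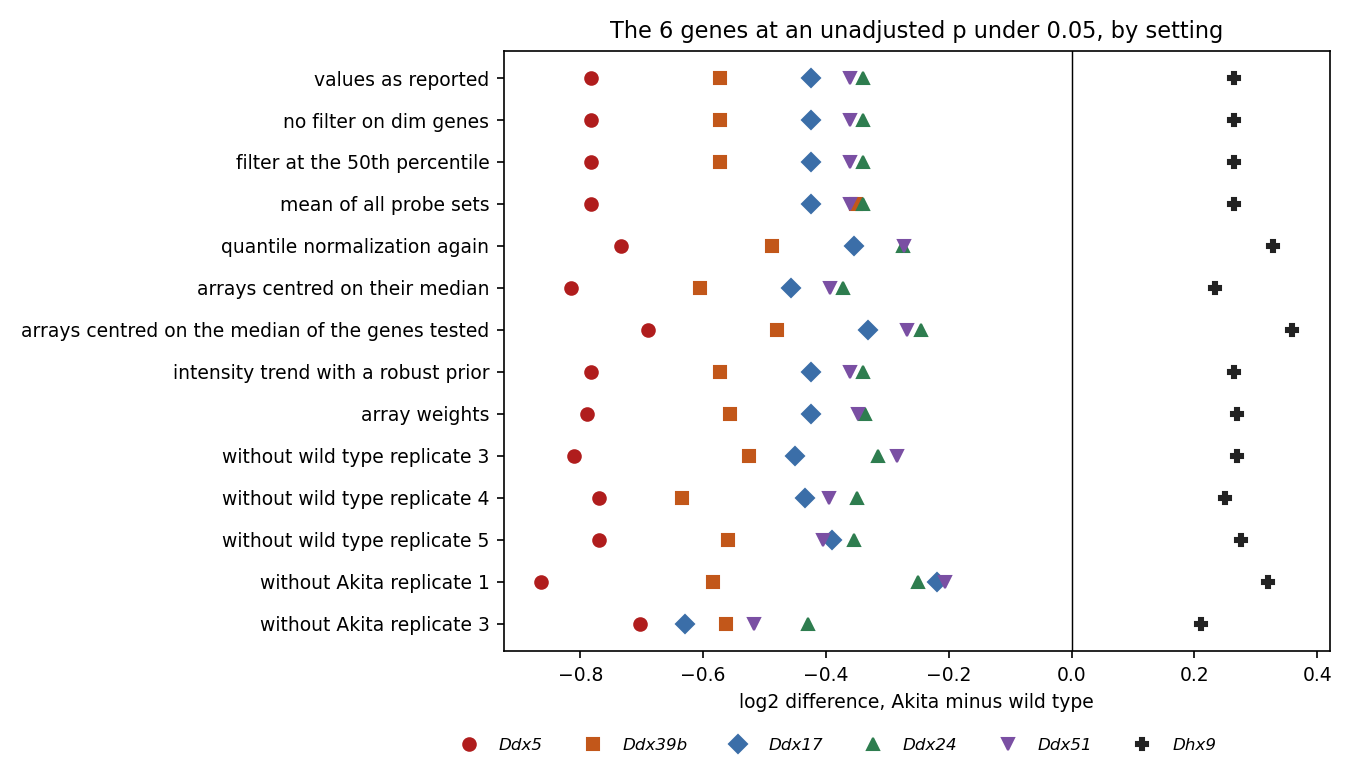
Log2 difference, Akita minus wild type, of the 6 members at an unadjusted p under 0.05, for the values as reported and 13 alternatives; each symbol is a gene. No symbol crosses 0, Ddx5 stays between -0.86 and -0.69, and Ddx17 moves from -0.22 without Akita replicate 1 to -0.63 without Akita replicate 3. The groups did not overlap in any of these 6 genes, so leaving out an array could not by construction bring a symbol across 0.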

How the data were processed

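RNA from heart tissue was labelled for whole-transcript arrays, as the labels' protocols state. The authors deposited 1 log2 signal for each probe set, made with Affymetrix Expression Console per the submitters' processing notes; with the version, probe summarisation and build not given in the sources used here, and the log base was read from the range of the values. If arrays were scaled to each other, a shift shared by most genes would not show. Probe sets with exactly 1 annotated symbol (23521 of 41345) were kept and the brightest per gene used. A filter at the 30th percentile of the genes' mean signals (4.06) left 15528 genes, among them 46 of 49 members. Differences (Akita minus wild type) come from two-sided tests in limma 3.58.1 (R 4.3.3; lmFit, then eBayes, with 3 residual and 4.38 prior degrees of freedom). Their p-values were adjusted by Benjamini-Hochberg across every gene tested, and 0.05 was the threshold. The test was tried on simulated data with independent noise for each gene and no shift shared within an array. That trial does not cover the gap between the Akita arrays. Members were listed by symbol; those named are the members with an unadjusted p under 0.05 or among the 8 smallest, the 2 smallest of each role, all RNA sensors and germ line members, and close relatives. Others are given by value where they show a range or were chosen after their values were seen, as were the DNA motifs. Members, lists and tests were chosen with earlier results of these data known. Promoter and microRNA sequences are from RefSeq tables of GRCm38.p6, in which 43 of 49 members had a promoter. Level differences between probe sets depend on the probes, so levels are not compared between genes. Figures were drawn with matplotlib 3.10.9 in Python 3.11.15, with pandas 2.3.3. The alternatives were other filters, probe set averaging, quantile normalization, centring, an intensity trend, array weights, each array left out and a threshold of 0.1. What is called quantile normalization again was run on the deposited values of the probe sets with 1 annotated symbol. Whether those values had been quantile normalized before is not given in the sources used here.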

Additional observations from a re-analysis of the deposited data

How the results depend on the processing

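No paired analysis was possible because the groups share only replicate number 3. The count of members past an adjusted p of 0.05 was 0 with no filter, quantile normalization again, array weights or arrays centred on the median of the genes tested (an alternative added after seeing the data), 2 with an intensity trend and a robust prior, and 0 with each array left out. Ddx5, reported at -0.78, was then at -0.78 with no filter, -0.73 with quantile normalization, -0.79 with array weights, -0.69 with that centring and -0.86 to -0.70 with an array left out. Members lower at an unadjusted p under 0.05 numbered 2 to 9 with an array left out, against 5; the 2 came without Akita replicate 1 and the 9 without Akita replicate 3. Members higher at that p numbered 2 with quantile normalization, the intensity trend or that centring, 0 with array weights or centring on all named genes, and 0 to 2 with an array left out, against 1; with no filter the 1 was Ddx4 in place of Dhx9. Members lower without overlap numbered 7 with quantile normalization, 8 with arrays centred on the median of the genes tested and 12 to 29 with an array left out, against 12. Members higher without overlap numbered 7 with quantile normalization, 8 with that centring and 3 to 11 with an array left out, against 3. The cause of these changes was not tested. Leaving out an array can by construction only keep or raise a count without overlap. With an Akita array left out, the other was assumed to vary like the wild type arrays. Of the 49 members, 3 were too dim to test, and Ddx60, Dhx58 and Ddx11 were dim among those tested.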
